A study of Branchiostoma belcheri with 3 samples.

Results

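The miRNA profile of the hepatic caecum was set against that of the gill in the amphioxus Branchiostoma belcheri, a small invertebrate chordate. Of the 3 arrays of the study 2 entered the comparison, and all 1686 miRNA probes of the array, which fall into 667 families by miRNA number, were followed on both. Of the probes, 260 carry amphioxus sequences (prefix bbe for B. belcheri, bfl for B. floridae) and 1426 carry sequences of other animals, such as zebrafish (dre), a frog (xtr), lamprey (pma), sea squirts (cin, csa), a larvacean (odi), an acorn worm (sko) and a sea urchin (spu). The gill sample and the hepatic caecum sample were each RNA pooled from 5 adult animals kept on algae in seawater, with no treatment, and 1 array was hybridised per organ with Cy3-stained RNA below 300 nt. The array of the intestine was used for scaling, and a few of its densities are quoted without scaling. Array and organ cannot be told apart, no difference has a replicate check, and no test between organs was possible, so the small number of arrays is what limits precision.

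The hepatic caecum is a blind pouch that grows forward from the amphioxus gut, takes up food and makes digestive enzymes, and is often compared with the vertebrate liver. The gill lies in the pharynx wall, where ciliated bars filter food from seawater. A miRNA is a short RNA that guides silencing proteins to messenger RNAs, mostly by pairing of its seed, bases 2 to 8, and miRNAs with 1 seed can share targets. In a bulk sample, fewer cells of a type and less RNA per cell cannot be told apart.

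The sequences on which the comparison turned are shown here as the array lists the targets of its probes, 5′ to 3′, with the seed in capitals. The first set belongs to miRNAs that stood higher on the hepatic caecum array, and to bfl-miR-4868c-3p. That probe was detected on neither array and is shown because it has the seed of the other miR-4868 probes.
bfl-miR-4870: gAUGUUUGuacugucugucuguu
bfl-miR-31-5p: uGGCAAGAuguuggcauagcugu
bbe-miR-4857-5p: aCGAUGUUuuugucugcuccaga
bbe-miR-4869-5p: aCGAUGUUgacuuccgcuccucu
bfl-miR-4862-5p: aCGCGUUUaugucugcgccugu
cin-miR-4171-5p: uGACUCUCuuaaggaagcca
bfl-miR-4868a: uCAGCUCCagcgcugaucaguga
bfl-miR-4868b: uCAGCUCCagcugugaugaguga
bfl-miR-4868c-3p: uCAGCUCCaaggcugaucag
In this set miR-4857-5p and miR-4869-5p share the seed CGAUGUU and differ at 8 positions, and the miR-4868 probes share CAGCUCC.

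The second set belongs to miRNAs that stood higher on the gill array, and to bbe-miR-2076-5p, which is shown because it has the seed of miR-92 and did not differ 2-fold.
bbe-miR-92c-3p: uAUUGCACuugucccggcucg
bfl-miR-92b-3p: cAUUGCACucgucccggccuga
bbe-miR-92d-3p: uAUUGCACuuauccuggccugu
dre-miR-25: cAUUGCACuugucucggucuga
bfl-miR-2063: uAUUGCACuaauuugcuuuuga
bbe-miR-2076-5p: aAUUGCACuagagugauuuguu
bfl-miR-2062-5p: uGCAACAAuauuucaucagugg
bfl-miR-281: uGUCAUGGaguugcucucuuuu
bfl-miR-184-3p: uGGACGGAgaacugauaaggg
bfl-miR-217: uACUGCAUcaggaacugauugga
bfl-miR-216-5p: uAAUCUCAgcuggcaacugugag
The first 6 of these lines carry the same seed, AUUGCAC.

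Values are scanner densities, the median brightness of a spot, averaged over the 2 spots of a probe, with the SD of these spots as the error within an array. A probe counted as detected above the mean of the 304 spots without a probe plus 3 SDs. These blank spots averaged 107 ± 10.6 for gill and 185 ± 144 for hepatic caecum, so the thresholds were 139 and 618. The hepatic caecum grid was read turned by 180 degrees, a placement chosen because the blank spots are then dark, so their level is no check of it. In the turned grid 8 blank spots still exceeded the threshold, against 1 on the gill array.

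Fewer miRNAs passed the threshold in the hepatic caecum than in the gill, by a margin that depended on the threshold. In the gill, 455 probes (27%) passed, which belong to 176 families (26.4%). In the hepatic caecum, 121 probes (7.18%) of 46 families (6.9%) passed. Both arrays detected 117 probes, the gill alone 338 and the hepatic caecum alone 4. By family, 45 were detected on both arrays, 131 in the gill only and 1, miR-4868, in the hepatic caecum only. The higher threshold of the hepatic caecum array moves with this gap. Of the 131 gill-only families 30 had a gill density above the hepatic caecum threshold. The median density ratio of the shared probes, hepatic caecum over gill, was 0.309, and at that ratio 11 of the 131 would have passed. With the hepatic caecum threshold on both arrays the shares of probes were 12.9% in the gill and 7.18% in the hepatic caecum. With thresholds from the median and MAD of the blanks they were 28.2% and 18.98%.

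**Figure D1:**
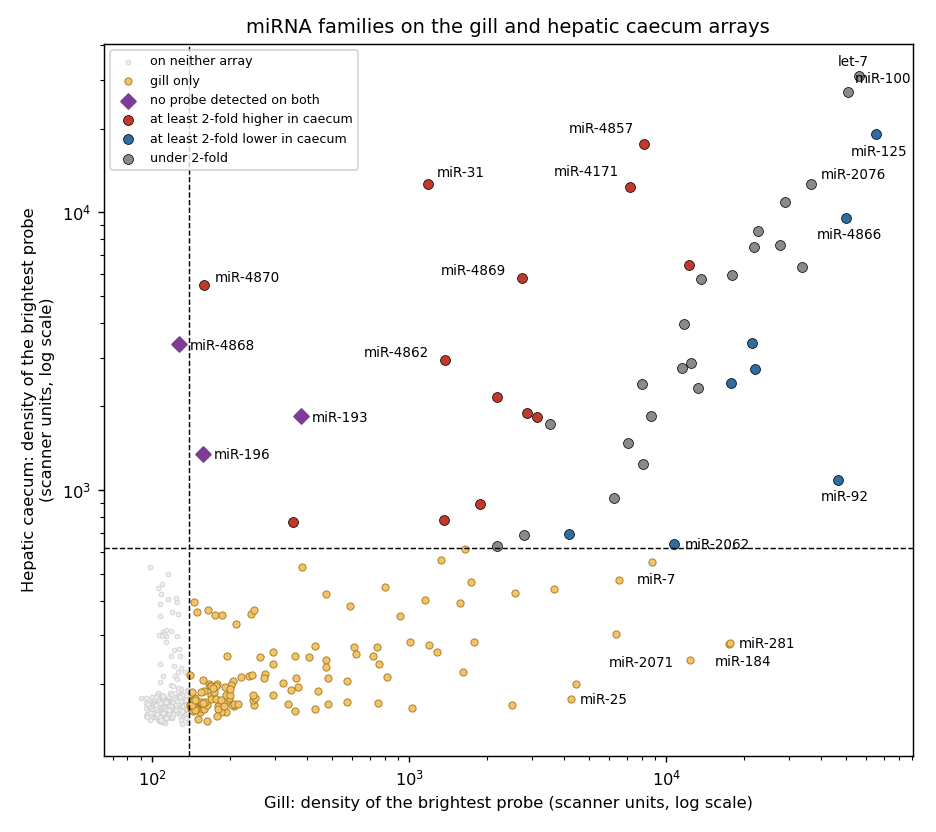
Density of the brightest probe of each of 667 families on the gill array (x axis) and the hepatic caecum array (y axis), both in scanner units on log scales, with the thresholds of 139 and 618 as dashed lines. miR-31, miR-4870 and miR-4857 lie far above the band of the shared families, miR-92 lies at 46655 in gill and 1089 in hepatic caecum, and the gill-only families lie below the horizontal line.

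Some probes lay close to the hepatic caecum threshold. Just above it were odi-miR-31 at 626, bfl-miR-2013 at 630 and bfl-miR-2062-5p at 641. Just below it were cin-miR-4090-3p at 613, bfl-miR-92c at 606 and cin-let-7e at 601.

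The first question was which miRNAs dominated each organ. Families were ranked within an array by their brightest probe, which orders brightness and not abundance, since probes bind with different strength. Of the 12 highest families, 9 were the same on both arrays, namely let-7, miR-100, miR-125, miR-4866, miR-2076, miR-10, miR-29, miR-2067 and miR-22. The 3 that were among the 12 in the gill only were miR-92, miR-2070 and miR-135, and the 3 in the hepatic caecum only were miR-4857, miR-31 and miR-4171. Over the 177 families detected on at least 1 array, Spearman's rho of the ranks was 0.724, given as a description across families, which are not independent and share an array and its background. It was 0.573 over the 45 families detected on both.

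**Figure D2:**
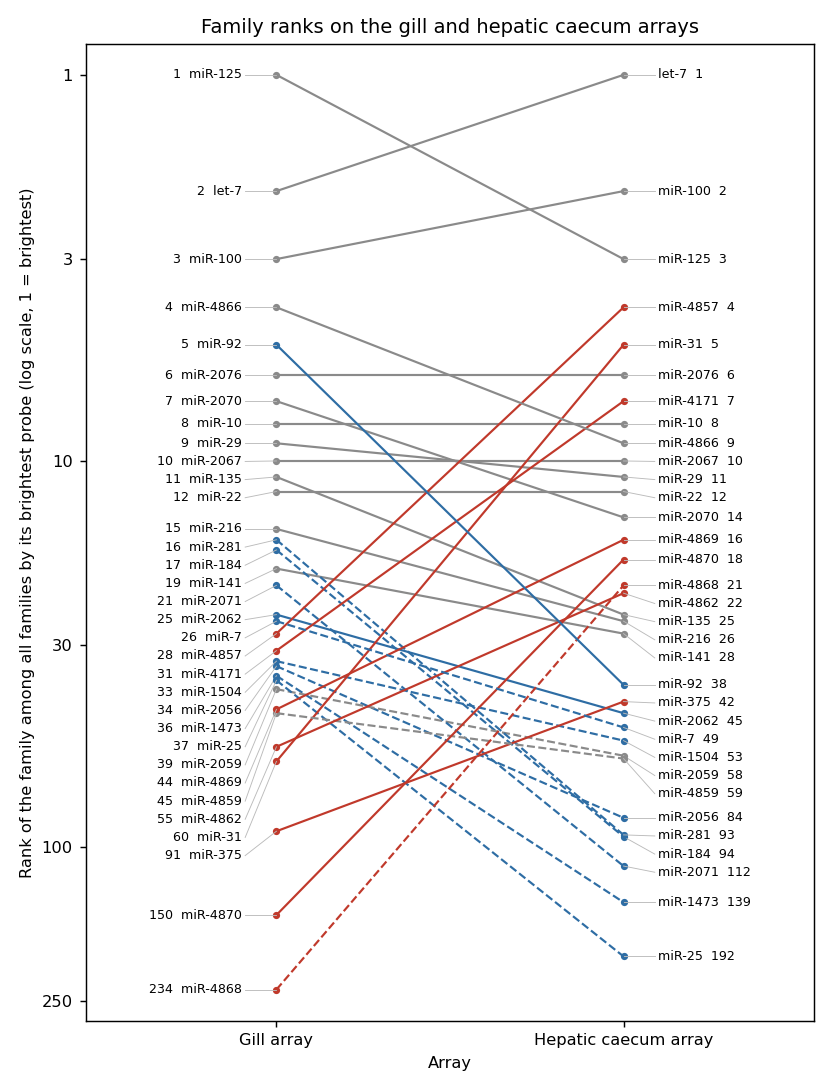
Rank of named families by their brightest probe among 667 (y axis, log scale, 1 is the brightest) on the gill array (left) and the hepatic caecum array (right), with rises of 20 or more places in red, falls of 20 or more in blue and the rest in grey. Dashed lines mark families not detected on 1 of the arrays, whose level there is not above the threshold and whose rank there is thus not settled. miR-31 went from 60 to 5 and miR-92 from 5 to 38, while miR-2076, miR-10, miR-2067 and miR-22 kept ranks 6, 8, 10 and 12.

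Differences between the organs were taken on the log2 scale after quantile normalization and are given relative to the median of the 117 shared probes. That median was 0.70 (hepatic caecum minus gill) after quantile normalization and -1.77 before any scaling, so the direction of a difference of ordinary size depends on the reference. On the relative scale 29 probes (24.8%) were at least 2-fold higher in the hepatic caecum and 23 (19.7%) at least 2-fold lower. By family, the median over its shared probes was at least 2-fold higher for 13 of 43 (30.2%) and lower for 8 (18.6%), and 22 differed less. The remaining 2 of the 45 families, miR-193 and miR-196, had no probe detected on both arrays. Of the 52 probe calls 44 were larger than 2 spot SDs, a technical error within arrays. The higher families rested on 1 probe in 10 of 13 cases and the lower ones in 3 of 8. Without scaling between arrays the families split into 6 higher and 30 lower, with 5S rRNA as the reference into 2 and 34, with spike-ins into 6 and 30, and after quantile normalization without the shared median into 20 and 2. The corresponding probe counts were 12 and 87, 8 and 99, 12 and 87, and 48 and 11.

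**Figure D3:**
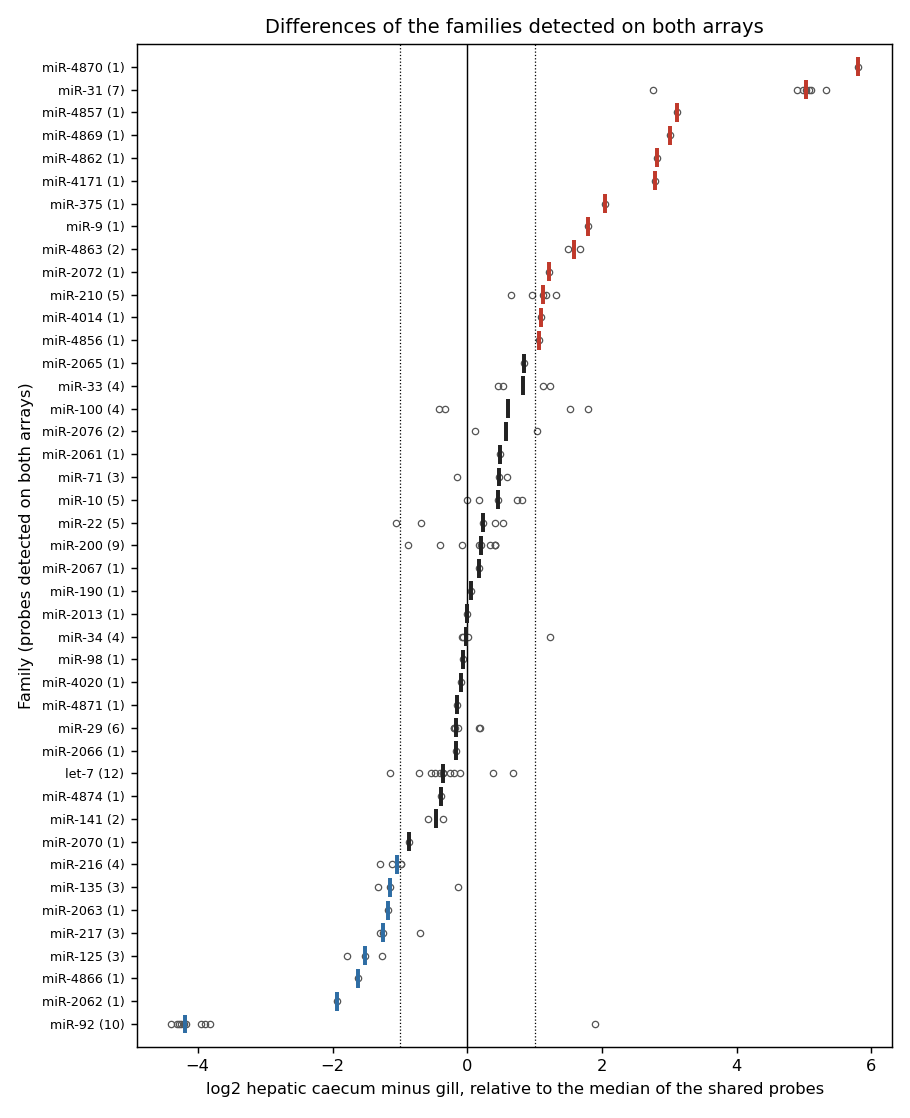
log2 difference, hepatic caecum minus gill, relative to the median of the shared probes (x axis), for 43 families (y axis, with the number of probes detected on both arrays). Open circles are probes, bars are family medians, red at 1 or more and blue at -1 or less. miR-4870 (5.80) and miR-31 (5.02) stand at the top and miR-92 (-4.19) at the bottom, and 1 probe of the miR-92 number lies at 1.90.

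The miRNAs that stood higher in the hepatic caecum came first from miR-31, an old family of animals known in vertebrates for roles in epithelia and muscle. Its amphioxus probe bfl-miR-31-5p had spots of 889 and 1013 in the gill and of 11583 and 10406 in the hepatic caecum. Both hepatic caecum spots lay above both gill spots, and the relative log2 difference was 5.08 ± 0.18. All 7 miR-31 probes detected on both arrays were higher, from 2.76 to 5.33. The smallest difference was that of odi-miR-31, which differs from bfl-miR-31-5p at 3 positions and went from 159 to 626. The probe xtr-miR-31a differs from bfl-miR-31-5p at 1 position and went from 1069 to 12648. These probes can bind the same miRNA and are not separate measurements. The opposite arm, bfl-miR-31-3p, was detected on neither array, at 117 and 253. The miR-31 difference stayed above 2-fold in every setting of the turned grid, at 3.42 without scaling and 2.89 with 5S rRNA as the reference.

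miR-4870 is an amphioxus miRNA with 1 probe and no role known here. Its gill spots were 182.3 and 135.4, on either side of the gill threshold, and its hepatic caecum spots were 7092 and 3815. The family rose from rank 150 to 18, and its relative log2 difference was 5.80 ± 0.75. It was 5.37 without scaling and 4.84 with 5S rRNA.

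The only family detected in the hepatic caecum and not in the gill was miR-4868, also named from amphioxus. The probe bfl-miR-4868a had gill spots of 121 and 120 and hepatic caecum spots of 3075 and 3575, and was at least 40.0-fold higher in the hepatic caecum, relative to the shared median and against the dimmest detected level of the gill array. For bfl-miR-4868b, 3 positions away, the gill spots were 119 and 131 and the hepatic caecum spots 545 and 6151. One of these spots lay below the threshold, so its bound of at least 21.6-fold rests on the other. The third relative, bfl-miR-4868c-3p, differs from bfl-miR-4868a at 2 positions and was detected on neither array, at 117.6 in the gill and 215.4 in the hepatic caecum. The bounds, taken from background-corrected values, depended on the reference, and for bfl-miR-4868a and bfl-miR-4868b were 30.6-fold and 15.9-fold without scaling and 21.2-fold and 11.01-fold with 5S rRNA. In scanner units the means were 27.6 and 26.8 times those of the gill. On the intestine array, which is another part of the gut, the brightest miR-4868 probe had a density of 171 and bfl-miR-4870 had 437. Several of the miRNAs that stood higher in the hepatic caecum were bright in the intestine too, with 10561 for the brightest miR-31 probe, 13902 for miR-4857, 6159 for miR-4869 and 3062 for miR-4862, and the brightest miR-92 probe had 2129.

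Further amphioxus miRNAs with numbers near these stood higher in the hepatic caecum. bbe-miR-4857-5p went from 8211 ± 1455 in the gill to 17621 ± 1996 in the hepatic caecum, a relative log2 difference of 3.11 ± 0.31, and rose from rank 28 to 4. bbe-miR-4869-5p, which has the same seed, went from 2731 ± 160 to 5787 ± 327, a difference of 3.01 ± 0.12. The density ratios of these probes were close, at 2.15 and 2.12. bfl-miR-4862-5p had another seed and went from 1374 ± 270 to 2934 ± 72.0, a ratio of 2.14 and a relative log2 difference of 2.82 ± 0.29. Unlike most shared probes, these 3 were brighter in the hepatic caecum in the raw scanner values too, and their differences without scaling were 1.11, 1.08 and 1.10. With 5S rRNA as the reference they were 0.58, 0.55 and 0.58, below 2-fold.

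The opposite arms of these miRNAs were detected on neither array. For bbe-miR-4857-3p the densities were 122 in the gill and 179 in the hepatic caecum, for bbe-miR-4869-3p 135 and 161, and for bfl-miR-4862-3p 117 and 169. The differences were thus measured for the 5p arm, the strand of the hairpin nearer its 5′ end. For the opposite arms, below both thresholds, none could be measured.

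Families were also grouped by number, after their values were seen. Of those numbered miR-4856 to miR-4870, 15 were on the array, 13 were detected in the gill and 8 in the hepatic caecum. A difference could be taken for 7 of them, of which 6 were higher (miR-4856, miR-4857, miR-4862, miR-4863, miR-4869 and miR-4870) and 1, miR-4866, was lower, with a median of 2.82. The next amphioxus numbers that could be compared, miR-4871 and miR-4874, lie outside this cut and were under 2-fold, at -0.15 and -0.40. The count and the median thus depend on where the block ends. Over all 43 families the median was 0.20. In the other block of amphioxus numbers, miR-2054 to miR-2079, 9 families could be compared, of which 1 was higher and 2 lower, with a median of 0.18. The share of higher families over all 43 was 30.2%. With 5S rRNA as the reference 1 of the 6, miR-4870, stayed at least 2-fold higher, and for 2 of them the sign turned without scaling. bbe-miR-4863-5p had nearly equal densities of 2183 ± 172 and 2164 ± 22.1, and the family difference of 1.59 became -0.26 without scaling. bbe-miR-4856a-5p had hepatic caecum spots over 3-fold apart, with a mean of 1903 ± 1425 against 2872 ± 232 in the gill, and its difference of 1.06 became -0.90.

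miR-4171 was named from a sea squirt, and its 1 probe, cin-miR-4171-5p, went from 7213 ± 187 in the gill to 12387 ± 4244 in the hepatic caecum. It rose from rank 31 to 7, with a relative log2 difference of 2.79 ± 0.51 that was 0.73 without scaling. Its nearest amphioxus probe sequence on the array, bbe-miR-210-3p, differs at 9 positions. Which amphioxus RNA binds the probe was not tested.

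Single probes of miR-375 and miR-9 also passed 2-fold, with spots that disagreed. bfl-miR-375 belongs to a miRNA of the vertebrate pancreas and other endocrine cells. It had a mean of 240 ± 61.4 in the gill and 765 ± 676 in the hepatic caecum, a relative log2 difference of 2.04 ± 1.82. It was 0.18 from the first spots and 3.60 from the second spots, so the call rests on 1 spot. sko-miR-9, of a family known from vertebrate neurons, went from 1097 ± 658 to 894 ± 192.4, a relative difference of 1.79 ± 1.02 that became -0.26 without scaling. The probe dre-miR-9-5p holds the same bases and was not detected in the hepatic caecum, at 490 against 1882 in the gill.

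Smaller relative rises were seen for miR-210, known in vertebrates as a miRNA of low oxygen, for miR-2072 and for miR-4014. dre-miR-210-3p went from 3140 ± 92.9 to 1833 ± 38.7, and the 5 shared miR-210 probes had relative differences of 0.64 to 1.32 with a family median of 1.13. The amphioxus probe among them, bfl-miR-210-3p, was at 0.96, under 2-fold. The miR-210 family was also under 2-fold with 1 factor per array (0.69) and from the second spots (0.82). bfl-miR-2072-5p went from 12233 ± 654 to 6451 ± 1190, a difference of 1.22 ± 0.28. cin-miR-4014-3p went from 1363 ± 48.5 to 779 ± 11.6, a difference of 1.10 ± 0.06. All 3 families were dimmer in the hepatic caecum in scanner units and fell below 0 without scaling, at -1.08, -0.95 and -0.93, so they were higher only relative to the other shared probes.

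Among the families with probes detected on both arrays, miR-92 stood lowest in the hepatic caecum against the gill. miR-92 belongs to a conserved family, and its vertebrate members lie in clusters known for cell growth. bbe-miR-92c-3p had densities of 41268 ± 2308 in the gill and 800 ± 11.2 in the hepatic caecum, a relative log2 difference of -3.95 ± 0.08. Of the 10 shared miR-92 probes the 9 with the seed AUUGCAC had gill densities of 38437 to 46655 and hepatic caecum densities of 663 to 1081, with relative differences from -4.39 to -3.82. The gill range lay far above the hepatic caecum range. A further 17 probes with that seed were detected in the gill only, with hepatic caecum densities up to 606, just below the threshold. One of them, bfl-miR-92b-3p, had gill spots of 43848 and 44371 and hepatic caecum spots of 518 and 503, and was at least 44.4-fold lower. The family fell from rank 5 to 38, the latter set by a probe of another seed, cin-miR-92e-5p. Its median was -4.19, and -5.84 without scaling.

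The probe cin-miR-92e-5p has the seed GGUGUGG and went from 1163 ± 127 to 1089 ± 120, a relative difference of 1.90 ± 0.24. It belongs to the family by number alone.

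Of the other miRNAs with the seed AUUGCAC, those detected on both arrays differed less. bbe-miR-2076-5p, with the same seed in another sequence, went from 36598 ± 7152 to 12601 ± 1700, a relative log2 difference of 0.11 ± 0.35, and the family held rank 6 on both arrays. bfl-miR-2063, also with that seed, went from 3986 ± 2518 to 695 ± 591, a difference of -1.18 ± 1.97 that is within its spot error and was 0.16 from the first spots. dre-miR-25, a vertebrate relative of miR-92, had gill spots of 4888 and 3626 and hepatic caecum spots of 176 and 180, and was at least 2.50-fold lower in the hepatic caecum. The amphioxus probe bbe-miR-92d-3p, 4 positions away from bbe-miR-92c-3p, had densities of 3953 in the gill and 580 in the hepatic caecum, where it was not detected. It was at least 1.70-fold lower there. For dre-miR-25 and bbe-miR-92d-3p only lower limits are known, so whether they differed less than bbe-miR-92c-3p is not settled.

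Families were also compared by their share of the summed density of an array, with the blank mean subtracted, which scales each array by its own total. Since the probes are the same on both arrays, a family's share can be compared, although it also depends on how many probes the family has. The miR-92 probes made up 29.7% of the sum in the gill and 1.64% in the hepatic caecum. The miR-31 probes made up 0.218% and 10.8%. The let-7 probes made up 15.9% and 27.9%, although the relative log2 difference of let-7 was -0.36. Those of miR-100 made up 3.67% and 7.63%. For miR-125 the shares were nearly equal, at 7.38% and 7.53%, although its relative log2 difference after quantile normalization was -1.52.

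bfl-miR-2062-5p, an amphioxus miRNA, went from 10686 ± 183.1 in the gill to 641 ± 81.9 in the hepatic caecum, close above its threshold. The relative difference was -1.93 ± 0.21 and the rank fell from 25 to 45. bfl-miR-4866-5p went from 49730 ± 6379 to 9571 ± 5451, a difference of -1.62 ± 0.90, and stayed among the 12 highest at ranks 4 and 9. The miR-4866 call held in 9 of 13 settings relative to the shared median. Its difference was -0.74 with 1 factor per array and -0.74 from the second spots. It reached 0.12 at the lower threshold of the median-based rule, under which more probes enter.

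Both miRNAs of the vertebrate pancreas that could be followed with several probes were lower. bfl-miR-217 went from 18140 ± 369 to 2260 ± 110, a difference of -1.25 ± 0.08, and the 3 miR-217 probes ranged from -1.30 to -0.70. bfl-miR-216-5p went from 14147 ± 383 to 1359 ± 690, a difference of -1.29 ± 0.82, and the 4 miR-216 probes ranged from -1.29 to -0.98 with a median of -1.05. The list of pancreas and endocrine miRNAs held 4 families, of which miR-216 and miR-217 were lower, miR-375 was higher through 1 spot, and miR-7 was detected in the gill only. Over all 43 families 18.6% were lower and 30.2% higher. bfl-miR-135a went from 22050 ± 381 to 2737 ± 45.1, a difference of -1.33 ± 0.04, with a family median of -1.15. The calls of miR-217, miR-216 and miR-135 each held in 10 of 13 settings relative to the shared median. In the others the values reached -0.63 for miR-217 and -0.55 for miR-216. For miR-135 they reached -0.25 under the median-based threshold, and the first spots gave -0.89.

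miR-125, which in many animals lies in a cluster with let-7 and miR-100, was the brightest family of the gill array. dre-miR-125c had 64983 ± 576 in the gill and 19068 ± 373 in the hepatic caecum, a relative log2 difference of -1.26 ± 0.03. One gill spot each of dre-miR-125a and dre-miR-125b was at the scanner maximum of 65535, so their gill densities are lower limits. The family median of -1.52 is that of dre-miR-125a and so rests on such a limit. It was -0.30 with 1 factor per array in place of quantile normalization, -0.86 with cyclic loess, -0.97 under the median-based threshold and -0.87 for densities over 500 in 1 tissue, and the call is lost in each.

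The other members of that cluster kept their place at the top. dre-let-7a had 56095 in the gill and 30866 in the hepatic caecum, a relative difference of -0.26, and let-7 held ranks 2 and 1. The 12 shared let-7 probes ranged from -1.15 to 0.68 with a median of -0.36. bfl-miR-100-5p had 50831 ± 1887 and 27095 ± 1264, a relative difference of -0.32 ± 0.09. Its opposite arm went another way on this scale, since bfl-miR-100-3p had nearly equal densities of 1698 ± 135 and 1573 ± 103, a relative difference of 1.79 ± 0.15. The same split was seen in the lamprey probes, where pma-miR-100b had -0.42 and pma-miR-100a-3p 1.53. Without scaling, bfl-miR-100-5p had -0.91 and bfl-miR-100-3p -0.16, and the lamprey probes had -1.23 and -0.58. All of these lay above the unscaled shared median of -1.77, so the opposite directions of the arms depend on the scaling. The miR-100 family was at 1.03 with 1 factor per array.

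Of the epithelial, ciliary and Hox cluster miRNAs, those with shared probes, miR-200, miR-141, miR-34 and miR-10, had family medians within 2-fold of the median of the shared probes. The others of these lists on the array were miR-429 and miR-449, detected in the gill only, miR-205, detected on neither array, and miR-196, detected by no probe on both. bfl-miR-200b, of a family that marks vertebrate epithelia, went from 16870 ± 360 to 5932 ± 2168, a relative difference of 0.42 ± 0.55. The 9 shared miR-200 probes ranged from -0.88 to 0.42, and the 2 probes of miR-141, a relative, had a family median of -0.47. miR-34, known in vertebrates from ciliated cells, had a median of -0.02 over 4 probes, the highest at 1.23, and rank 24 on both arrays. miR-10, which lies in Hox clusters, had a median of 0.45 over 5 probes and rank 8 on both. miR-22 had 0.23, miR-29 had -0.16 and miR-71, an invertebrate miRNA, had 0.48.

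The 10 brightest families detected in the gill and not in the hepatic caecum were miR-281, miR-184, miR-2071, miR-7, miR-1504, miR-2056, miR-1473, miR-25, miR-2059 and miR-4859. bfl-miR-281, of a family known from invertebrates, had gill spots of 12320 and 13488 and hepatic caecum spots of 212 and 218, and was at least 7.59-fold lower in the hepatic caecum on the relative scale. bfl-miR-184-3p, of a family known from the eye and nervous system of other animals, had 17241 and 17093 in the gill and 272 and 276 in the hepatic caecum, and was at least 10.9-fold lower. Their families held ranks 16 and 17 in the gill. bbe-miR-2071-5p was at least 6.99-fold lower and dre-miR-7a at least 4.11-fold lower. The other bounds ran from 1.81-fold for bfl-miR-4859-5p to 3.48-fold for odi-miR-1504.

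Marker families of other cell types were examined whatever their values. miR-122, miR-192 and miR-194, which mark vertebrate liver, had 10 probes, all below the threshold on both arrays, with densities of 102 to 138 in the gill and 149 to 173 in the hepatic caecum. None of the 10 was an amphioxus sequence. They are 3 of 14 families on a list of liver and gut miRNAs, of which 5 were detected in the gill and 4 in the hepatic caecum. Of these miR-22, miR-29 and miR-31 had probes detected on both arrays, and only miR-31 had a family median past 2-fold. By probe, 33.7% of that list passed in the gill and 18.8% in the hepatic caecum, against 27% and 7.18% of all probes. The muscle families miR-1, miR-206 and miR-133 were detected in the gill with 15 of 35 probes (42.9%) and in the hepatic caecum with 0, beside 27% and 7.18% of all probes. Their summed densities were 6963 and 6277, where as many blank spots would give 3759 and 6490 at their mean. The hepatic caecum sum was thus below the blank level taken from the mean of 185. The blank median of that array was lower, at 156, and its brightest muscle probe had 272, above the median-based threshold of 201. Whether the sum was at background depends on the blank level used. The sensory families miR-183, miR-96 and miR-182 were detected with 10 of 29 probes (34.5%) in the gill and 0 in the hepatic caecum. Their sums were 5269 and 5342, against 3115 and 5377 for as many blank spots at their mean. The brightest sensory probe of the hepatic caecum array had 372, also above 201. Neural families were detected with 17 of 56 probes in the gill (30.4%), near the share of all probes, and with 1 in the hepatic caecum (1.79%), which is sko-miR-9. The red blood cell families miR-144 and miR-451 were below the threshold on both arrays. The highest gill densities of the muscle and sensory lists were 748 and 570, beside a hepatic caecum threshold of 618, so their absence there is not shown. What part cell composition has in the differences was not tested.

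The repeat spots set the trust in single values. Of the probes detected on the hepatic caecum array 13 had spots over 2-fold apart and 10 over 3-fold apart, against 12 and 3 of the far more numerous gill probes. For 12 of the 121 hepatic caecum probes 1 spot was below the threshold. pma-miR-193 had hepatic caecum spots of 150 and 3542, and those of pma-miR-196b were 166 and 2543. These probes thus count as detected through 1 spot each.

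**Figure D4:**
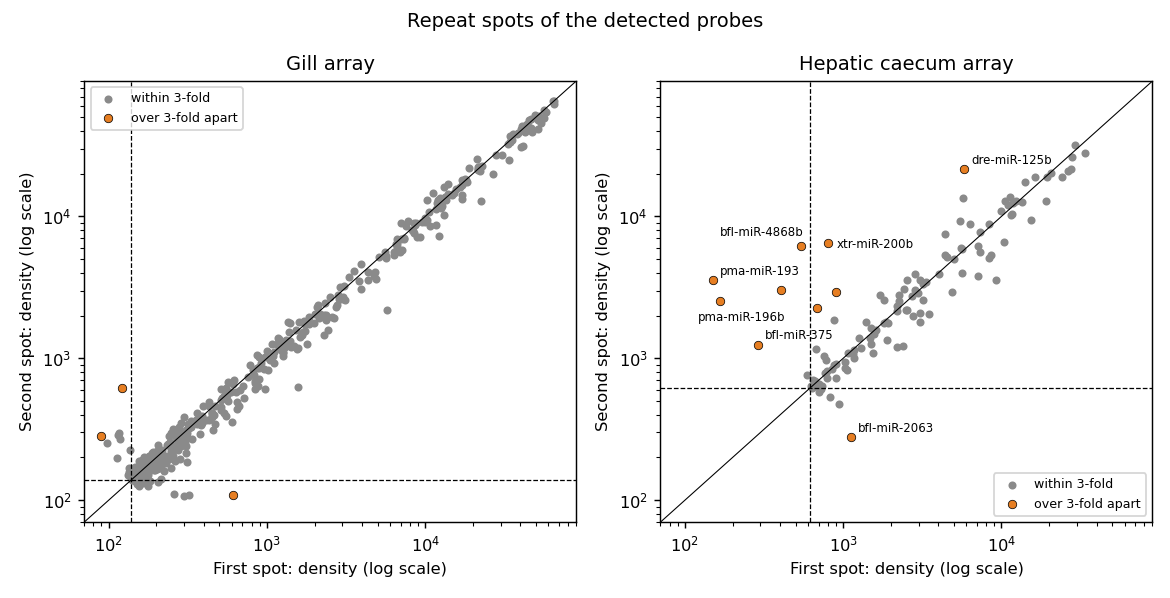
Density of the first (x axis) and second (y axis) spot of each detected probe on log scales, for the gill array (455 probes, left) and the hepatic caecum array (121 probes, right), with thresholds dashed and spots over 3-fold apart in orange. The gill array has 3 such probes and the hepatic caecum array 10, among them pma-miR-196b, pma-miR-193, bfl-miR-375 and bfl-miR-4868b.

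Of the 21 families called higher or lower, 9 kept the call under every setting that used the shared median and gave a value. These were miR-4870, miR-31, miR-4857, miR-4869, miR-4862, miR-4171 and miR-4863, all higher, and miR-92 and miR-2062, both lower. Requiring both spots above the threshold gave no value for miR-4870 and miR-2062. A gill spot of bfl-miR-4870 (135) and a hepatic caecum spot of bfl-miR-2062-5p (583) lay below the thresholds. Leaving out the scaling moves the shared median to -1.77 and shifts the families down by unequal amounts. For example, miR-4870 went from 5.80 to 5.37 and miR-210 from 1.13 to -1.08. A shift down by construction leaves lower families lower. Against that shift 6 of the 13 higher families stayed at least 2-fold higher and 6 fell below 0. With 5S rRNA as the reference 2 stayed at least 2-fold higher, namely miR-31 and miR-4870.

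**Figure D5:**
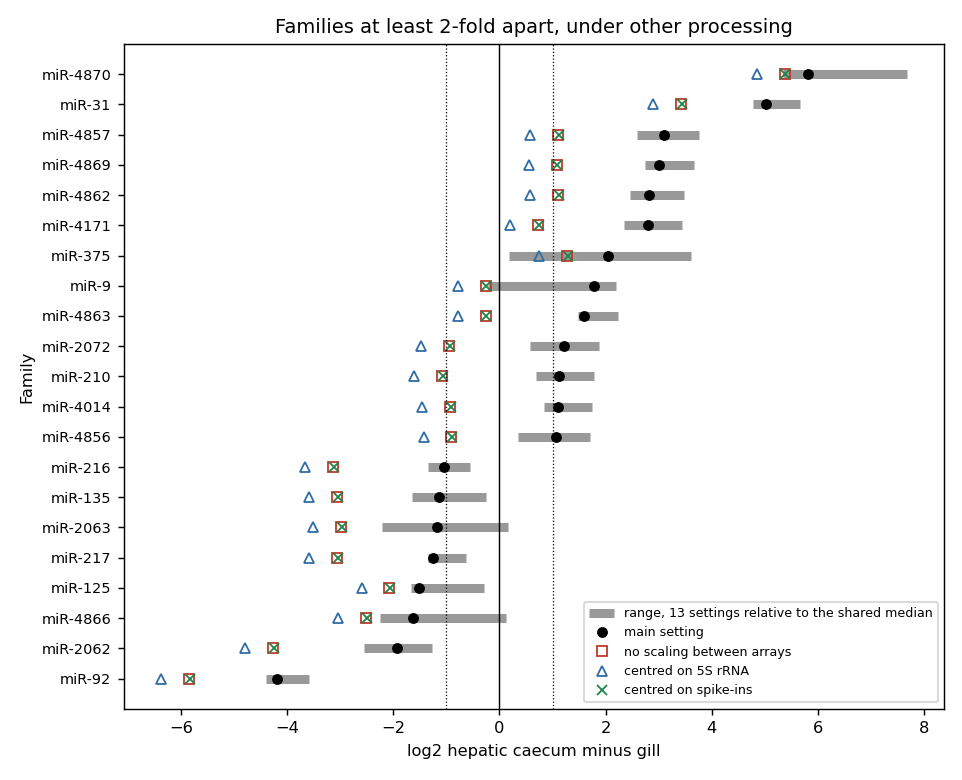
log2 difference, hepatic caecum minus gill (x axis), of the 21 families at least 2-fold apart (y axis). Black points are the main values, grey bars the range over 13 settings relative to the shared median, and squares, triangles and crosses the values without scaling, with 5S rRNA and with spike-ins as the reference. miR-31 and miR-4870 stay right of 1 throughout and miR-92 left of -1, and miR-9, miR-4863, miR-2072, miR-210, miR-4014 and miR-4856 fall below 0 without scaling.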

How the data were processed

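Small RNA of gill and hepatic caecum was measured on 1 Cy3 array each. The intestine array entered the normalization, and a few of its densities are quoted without scaling. Each deposited scanner file holds 3968 spots in 128 rows and 31 columns, and per the file headers its value is the median density of a spot, an intensity on a linear scale that ends at 65535. The deposited series table holds the authors' processed intensity values, whose correction and scaling are not given in the sources used here. The hepatic caecum densities were reversed in row-major order, a turn by 180 degrees, and this was chosen with the data seen. The members, lists and rules were chosen with earlier results of these data known. All columns of sample values were mapped (0 left out).

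Densities were corrected with normexp (offset 50), converted to log2, averaged over 2 spots and quantile-normalized over 3 arrays with limma 3.58.1 in R 4.3.3. The median difference of the probes detected on both arrays was subtracted from each difference, and a family value is the median over its probes detected on both. A 2-fold difference was counted. For a probe detected on 1 array, the bound sets its level there against the lowest detected level of the other array, or its own level there if that is higher. The error of a log2 difference joins the log2 spot SDs of both arrays before normalization. Python 3.11.15, numpy 2.4.6, pandas 2.3.3, scipy 1.17.1 and matplotlib 3.10.9 made the tables and figures, and the steps were tested on simulated data. The simulated arrays all had an even background at the level of the gill blanks, so the uneven hepatic caecum background was not tested. Control spots (24 of 5S rRNA, 268 spike-ins) entered the main setting through the background fit only. Their means on each array served as the references of the 5S rRNA and spike-in alternatives.

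Named were the 12 highest families of each array, the 6 with the largest difference and the 5 with the largest rank change per direction, families of the hepatic caecum only, the 10 brightest of the gill only, and marker lists. The families miR-2072, miR-4014, miR-4856 and miR-4863, and single probes such as cin-miR-92e-5p, were named after their values were seen. Alternatives changed the threshold, background correction, scaling, spots, probe set and grid.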

Additional observations from a re-analysis of the deposited data

Results flagged for a closer look

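Signal was seen outside the miRNA probes on the hepatic caecum array. In the turned grid 8 spots without a probe exceeded the threshold of that array, of which 7 lay in the first column of the grid and 1 in the last, and the gill array had 1. Some of the probes for zebrafish 5S rRNA, printed as controls, were also bright. The probe dre-5S-b3 had a mean density of 54044 ± 1319 (SD of 4 spots) on the hepatic caecum array and 13271 ± 1403 on the gill array, a ratio of 4.07. For dre-5S-b1 the densities were 12598 and 3177, a ratio of 3.97. For dre-5S-b4 they were 4420 and 3660, a ratio of 1.21. The probe dre-5S-b2 was lower in the hepatic caecum at 357 against 655, and was below the threshold there. Both dre-5S-b5 (159 and 113) and dre-5S-b6 (165 and 107) were below the threshold on both arrays. The 5S probes therefore do not give 1 common factor between the arrays, which touches every value quoted with 5S rRNA as the reference.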

How the results depend on the processing

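No paired analysis was possible because each tissue had 1 array. The hepatic caecum shares of 7.18% of probes and 6.90% of families became 18.98% and 20.7% with a threshold from the median and MAD of the blanks, and 0.237% and 0.5997% with the grid as deposited. The gill shares of 27.0% and 26.4% became 12.9% and 10.6% at the hepatic caecum threshold. Among amphioxus probes and their families alone, 19.6% and 31.5% were detected in the hepatic caecum and 61.9% and 65.8% in the gill. The 29 higher and 23 lower probes (13 and 8 families) became 48 and 11 (20 and 2) after quantile normalization without the shared median, 12 and 87 (6 and 30) without scaling, 8 and 99 (2 and 34) with 5S rRNA and 12 and 87 (6 and 30) with spike-ins. They became 47 and 59 (18 and 16) under the median-based threshold, 57 and 69 (22 and 17) for densities over 500 in 1 tissue, and 0 and 0 (0 and 0) with the grid as deposited, where 1 probe was shared. The rank rho of 0.724 was 0.573 over families detected on both arrays, 0.556 over all families and 0.251 in the deposited series table, whose hepatic caecum column follows the deposited names.

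Among the families called, signs turned without scaling, with 5S rRNA and with spike-ins for miR-2072 (-0.95, -1.48 and -0.94), miR-210 (-1.08, -1.61 and -1.07), miR-4014 (-0.93, -1.46 and -0.92), miR-4856 (-0.90, -1.43 and -0.89), miR-4863 (-0.26, -0.78 and -0.25) and miR-9 (-0.26, -0.78 and -0.25). Under the median-based threshold miR-9 became -0.22 and miR-4866 0.12, and from the first spots miR-2063 became 0.16. The cause was not tested. Over the 34 families followed, 342 alternative values stayed within the spread of spots and probes and 171 moved further, while 21 values of called families turned sign. Of the 13 families under 2-fold, 47 values also had another sign than the main one, and miR-10, miR-100, miR-200, miR-2067, miR-2076, miR-22, miR-33 and miR-71 turned under all 3 of these references. Requiring both spots above the threshold was chosen after seeing the data, and gave 26 and 18 probes and 12 and 6 families. Values near 618 in the hepatic caecum are limited by its uneven background, and the authors' table could not replace the scanner values.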

Other observations

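Pairs of arms could be followed for some miRNAs. For bfl-miR-29a the arms moved alike, since bfl-miR-29a-3p went from 27640 in the gill to 7627 in the hepatic caecum and bfl-miR-29a-5p from 5135 to 1112, with relative log2 differences of -0.14 and 0.18. In miR-22 the amphioxus probe bbe-miR-22-3p had a relative difference of 0.42, whereas the lamprey probes pma-miR-22a-3p and pma-miR-22b-3p with the same seed had -1.05 and -0.69. In miR-34 the probe bfl-miR-34b-5p stood apart from its family, at 2153 ± 227 in the gill and 1318 ± 88.5 in the hepatic caecum, a relative difference of 1.23 ± 0.19, while bfl-miR-34a and bbe-miR-34f-5p with the same seed had -0.08 and -0.06. The probe was singled out after its value was seen.

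Amphioxus probes were detected more often than the others on both arrays. Of the 260 amphioxus probes 61.9% passed in the gill and 19.6% in the hepatic caecum, and of the 1426 others 20.6% and 4.91%. Of the probes detected in the hepatic caecum 42.1% were amphioxus sequences. The median GC content was 45.5% for the 117 shared probes, 47.8% for the 29 higher probes, 50% for the 23 lower probes and 40.9% for those under 2-fold.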
